A study of Homo sapiens with 15 samples.

Results

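Feedback on the extracellular signal-regulated kinase ERK was followed through 10 genes in SCC13 cells, a line from a squamous cell carcinoma of the skin that lacks TLR4, the receptor for lipopolysaccharide (LPS). The genes were the dual-specificity phosphatases DUSP1, DUSP4, DUSP5, DUSP6 and DUSP10, the Sprouty genes SPRY2 and SPRY4, and the early response genes EGR1, IER3 and PHLDA1. Members were chosen by symbol: every probe whose accession maps to one of these symbols was taken, which gave 12 probes of 50599 on the array and 10 genes of the 20503 that could be named. SPRY4 and IER3 had 2 probes each, and the brightest probe stands for a gene where no other is named.

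Gene expression was measured on 15 arrays with 1 colour, made from cells that carried either TLR4 fused to GFP (SCC13-TLR4) or the empty plasmid pUNO (SCC13-pUNO). The groups were 4. Untreated SCC13-pUNO cells had 4 arrays, untreated SCC13-TLR4 cells had 3, and SCC13-pUNO and SCC13-TLR4 cells given 10 μg/ml LPS for 24 h had 4 each. Both lines were kept under blasticidin in DMEM with FCS, and the TLR4-GFP cells had been sorted for the brightest GFP. Each line was a single transfected population, so replicates were cultures. The p-values measure the spread between cultures, together with that between array slides wherever slide is not fitted. A difference between the lines cannot be told apart from any other difference between these 2 populations.

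ERK is the last kinase of the cascade that runs from growth factor receptors through RAS, RAF and MEK, and in keratinocytes it drives proliferation and migration. Active ERK enters the nucleus and switches on early response genes within minutes to hours, and several of their products turn the pathway down again. DUSP6, in the cytoplasm, and DUSP4 and DUSP5, in the nucleus, take the phosphates off ERK. DUSP1 and DUSP10 act mainly on the related kinases JNK and p38, and Sprouty proteins act above ERK, between the receptor and RAF. EGR1 is a zinc finger transcription factor, IER3 a stress-induced survival protein, and PHLDA1 a pleckstrin homology-like protein induced by growth factors.

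The target of the study checked the labels first. TLR4 read between 2.84 and 3.19 on all 7 SCC13-TLR4 arrays, as log2 intensity above or below its array's 75th percentile, the scale of every level given here. On 7 of the 8 SCC13-pUNO arrays it read between -6.40 and -3.80 and was well above background on 1 of them. The array labelled untreated SCC13-pUNO replicate 2 read 3.04, against its label. It lay at place 1 of its slide side, where the other 3 sides held untreated SCC13-TLR4 cells, while the other 3 untreated SCC13-pUNO arrays lay at place 3. Its side held 2 arrays labelled untreated SCC13-pUNO and none labelled untreated SCC13-TLR4. Every value of the untreated SCC13-pUNO group includes it unless it is said to be left out. It is written pUNO-2 from here on, and the fitted differences of the members are given with and without it. Variance shares, correlations and the separation of pathway genes between groups are given with it only. With LPS, TLR4 was not well above background on any of the 4 SCC13-pUNO arrays, and SCC13-TLR4 cells exceeded them at least 136-fold. The bound sets the mean of the SCC13-TLR4 arrays against the faintest signal well above background on each SCC13-pUNO array. Of 8 keratinocyte markers, 7 cleared background on each of the 15 arrays, among them KRT5, KRT14 and TP63. None of 6 fibroblast markers was well above background on every array, and COL1A2, COL3A1, LUM, DCN and PDGFRA were on no array. Of 6 leukocyte markers, PTPRC, CD14 and CD68 were well above background throughout and HLA-DRA on no array.

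The arrays lay on 2 slides, each with 2 sides of 4 positions by the position number in the file headers. Replicate 1 of every group shared the first side of slide 1. Slide 1 held 8 arrays and slide 2 held 7, and each slide held all 4 groups. The 75th percentile of the intensity ran from 192 to 420 over the arrays, and between 47.1% and 56.2% of spots were well above background.

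All 12 probes of the 10 genes passed the filter on faint probes, and 11 cleared the background on each of the 15 arrays. The exception was the fainter SPRY4 probe, which was well above background on 14. With group means fitted by limma, none of the 12 probes passed an adjusted p of 0.05 in any of the 5 comparisons, the difference between the LPS responses of the lines included. Across all 22685 probes tested the count was also 0 in every comparison, so the share called was 0%. TLR4 itself, the transfected gene, was not called in this fit, with limma's adjusted p of 0.999 untreated and 0.312 with LPS. Without pUNO-2, TLR4 was called between the lines in both, with limma's adjusted p of 1.4e-05 and 1.4e-06. The count of 0 therefore does not show that the lines were alike. At an unadjusted p under 0.05 the members still gave 0, where 2.5% of all probes did so between the untreated lines and 2.72% between the LPS-treated lines. Nor did the arrays of 2 groups lie apart for any member. Such separation was seen in 3.73% of probes between the untreated lines, 1.29% between the lines with LPS, 1.27% for LPS in SCC13-pUNO cells and 1.79% for LPS in SCC13-TLR4 cells. Left out alone, pUNO-2 took the count across all probes from 0 to 7 between the untreated lines and to 10 between the lines with LPS, and slide as a factor besides took it to 11 and 22. With the replicate number as a block in the LPS-treated arrays alone it was 4. No member was among them. What follows describes where the values of the 10 genes lay. In these cultures, measured whole, fewer cells that express a gene and less RNA per cell cannot be told apart.

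**Figure D1:**
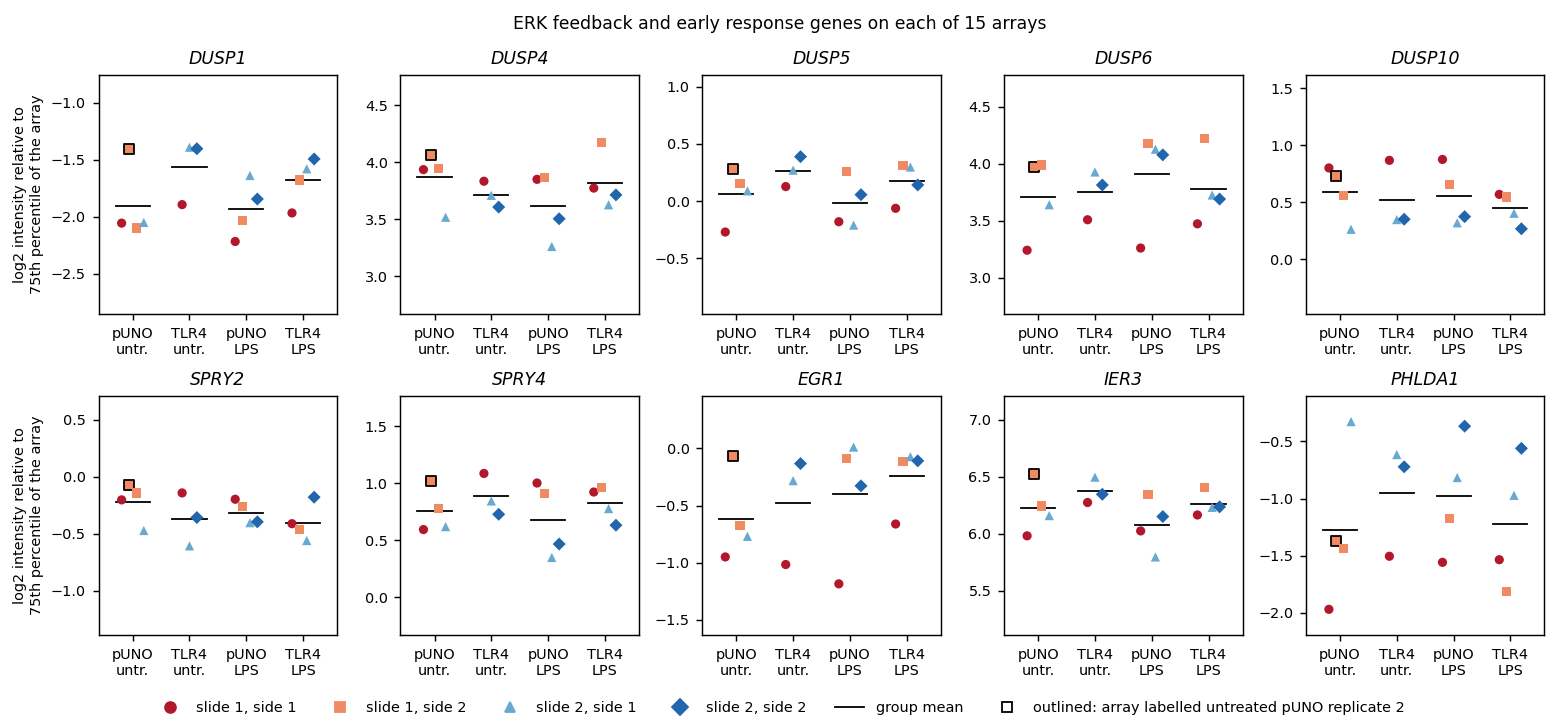
Log2 intensity on the scale of each array's 75th percentile (vertical axis, the same span in every panel) for the brightest probe of each gene in the 4 groups. Each point is 1 of 15 arrays, coloured by slide and side, black lines are group means, and the outlined point is pUNO-2. Slide 1 and slide 2 do not overlap in DUSP4, DUSP10 and PHLDA1, and in DUSP6 slide 1, side 1 lies below the other arrays.

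Where the genes start is shown by the sequence before the RefSeq transcription start for DUSP1, which stood highest between the lines, and for EGR1 and DUSP6, which were low together on the replicate 1 arrays. Each run is 250 bases, 5′ to 3′ on the strand of the gene, in GRCh38.p14. Capitals mark the CArG boxes bound by serum response factor in EGR1 and the cAMP response element TGACGTCA in DUSP1.
EGR1, chr5:138465229-138465478, plus strand: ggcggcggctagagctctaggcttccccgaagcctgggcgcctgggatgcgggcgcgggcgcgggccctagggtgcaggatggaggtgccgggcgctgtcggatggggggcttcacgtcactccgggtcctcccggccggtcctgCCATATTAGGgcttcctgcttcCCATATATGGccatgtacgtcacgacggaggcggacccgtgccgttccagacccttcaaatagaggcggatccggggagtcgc
DUSP1, chr5:172771196-172771445, minus strand: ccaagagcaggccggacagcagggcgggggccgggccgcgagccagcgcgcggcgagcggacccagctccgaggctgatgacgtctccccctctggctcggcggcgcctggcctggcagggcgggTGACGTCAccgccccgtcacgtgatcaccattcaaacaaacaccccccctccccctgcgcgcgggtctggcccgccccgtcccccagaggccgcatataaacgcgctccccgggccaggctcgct
DUSP6, chr12:89352502-89352751, minus strand: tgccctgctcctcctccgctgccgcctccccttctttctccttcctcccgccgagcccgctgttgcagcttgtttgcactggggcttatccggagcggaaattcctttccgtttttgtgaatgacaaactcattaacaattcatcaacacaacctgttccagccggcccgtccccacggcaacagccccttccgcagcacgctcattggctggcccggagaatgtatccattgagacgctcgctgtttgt

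RefSeq windows were found for 7 of the 10 genes, all but DUSP4, DUSP5 and IER3, and 5 motifs were searched on both strands. EGR1 held 2 CArG boxes, which began 105 and 83 bases before its start, and 1.16% of 35116 windows held any. DUSP1 held 1 cAMP response element, 125 bases before its start, against 1.65% of windows. The ETS core CCGGAA lay once before SPRY2 and once before PHLDA1, and 14.5% of windows held it. No member window held the AP-1 site TGANTCA or the EGR site GCGTGGGCG, which 6.57% and 0.72% of windows did. The windows of DUSP6, DUSP10 and SPRY4 held none of these letters, and no motif overlapped another. A match here describes letters and not binding.

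Between the lines, DUSP1, DUSP5 and IER3 lay higher in SCC13-TLR4 cells in each pair of arrays that shared a slide side and a treatment, by 0.22 to 0.31 log2 units on average. There were 6 such pairs, 2 without and 4 with LPS, and none used pUNO-2. Of 22389 probes measured in all 6 pairs, 3.1% were higher in 6 of 6 and 3.05% were lower in 6 of 6. Among the 12 member probes 3 were higher in 6 of 6 and none was lower in 6 of 6.

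Keratinocyte markers moved with the lines too. Of 7 tested, the basal keratins KRT5, KRT14 and KRT17 and the basal transcription factor TP63 were higher in SCC13-TLR4 cells in 6 of 6 pairs, and SFN in 2 and ITGA6 in 3. KRT14 was 0.88 ± 0.38 (SE) higher untreated and 1.68 ± 0.35 with LPS, with limma's adjusted p of 0.999 and 0.458. With slide as a factor and without pUNO-2, KRT14 passed the test in both comparisons, at 1.44 ± 0.19 and 1.68 ± 0.16 with limma's adjusted p of 0.0229 and 0.00122. In the same fit KRT17 was 0.38 higher untreated and 0.49 with LPS and was not called (limma's adjusted p of 0.825 and 0.260). The summed intensity of the 7 markers overlapped between groups, as log2 of the sum. It ran from 8.85 to 9.24 in SCC13-pUNO and from 8.90 to 9.20 in SCC13-TLR4 cells without LPS, and from 8.89 to 9.18 and from 8.82 to 9.33 with LPS. Of the leukocyte markers, PTPRC was 0.70 ± 0.43 (SE) higher untreated and 0.34 with LPS, in 5 of 6 pairs, and was not called (limma's adjusted p of 0.999 and 1.00). CD14 and CD68 went the other way untreated, at -0.20 and -0.11, and stood at 0.27 and 0.08 with LPS. Each was higher in 3 of 6 pairs. The part of these markers in the differences of the 10 genes was not tested.

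DUSP1, the phosphatase induced by stress and growth factors, had its probe printed 10 times on each array, and its spots differed by an SD between 0.07 and 0.19 within an array. In untreated SCC13-pUNO cells it read -2.05, -1.41, -2.10 and -2.05 in replicates 1 to 4, and in untreated SCC13-TLR4 cells -1.89, -1.39 and -1.40. The LPS-treated cells read -2.22, -2.03, -1.64 and -1.84 in SCC13-pUNO and -1.97, -1.68, -1.58 and -1.49 in SCC13-TLR4 cells. The highest untreated SCC13-pUNO value was that of pUNO-2, and the groups overlapped in both comparisons. Untreated SCC13-TLR4 cells were 0.34 ± 0.20 (SE) higher, with limma's adjusted p = 0.999 and an exact permutation p = 0.171 (two-sided, 3 arrays against 4). With LPS they were 0.25 ± 0.19 higher, with limma's adjusted p = 1.00 and an exact permutation p = 0.171 (4 against 4), and 0.16 higher without replicate 1 of SCC13-pUNO.

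Without pUNO-2, the untreated difference of DUSP1 was 0.51 and all 9 pairings of arrays pointed the same way. The exact permutation p was then 0.1, the smallest that 3 arrays against 3 can give. DUSP1 and IER3 were the 2 genes whose untreated groups then no longer overlapped, and 4.16% of all probes were higher in that way. With slide as a factor as well, DUSP1 was 0.40 ± 0.12 (SE) higher untreated, with limma's adjusted p = 0.766. With LPS it was 0.25 ± 0.10 higher in that fit, with limma's adjusted p = 0.753. DUSP1 and SPRY4 had an unadjusted p under 0.05 there without LPS and DUSP1 with LPS, against 5.75% and 6.44% of all probes. Slide side in place of slide, a fit added after the data were seen, gave more without LPS. There 5 of the 12 member probes had an unadjusted p under 0.05, against 1437 of 22685 probes. They were the probes of DUSP1 and DUSP5, the brightest of SPRY4 and both of IER3. With LPS it was again DUSP1 alone, against 1699 probes. No member passed the adjusted p of 0.05 in that fit. With LPS, DUSP1 was the member that separated the lines within each slide, which 2.09% of probes did in the same direction.

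IER3, the stress-induced survival protein, was read by 2 probes. The brightest probe read 5.98, 6.52, 6.24 and 6.16 in untreated SCC13-pUNO cells and 6.27, 6.50 and 6.35 in untreated SCC13-TLR4 cells. The LPS-treated cells read 6.02, 6.34, 5.80 and 6.15 in SCC13-pUNO and 6.16, 6.41, 6.23 and 6.24 in SCC13-TLR4 cells. Groups overlapped, and the spread in SCC13-pUNO cells (SD 0.23 with and without LPS) was wider than in SCC13-TLR4 cells (SD 0.11 untreated and 0.10 with LPS), a difference that was not tested. The lines differed by 0.15 ± 0.15 (SE) untreated and 0.18 ± 0.14 with LPS, with limma's adjusted p of 0.999 and 1.00. Without pUNO-2 the untreated difference of IER3 was 0.24, with all 9 pairings of arrays higher and an exact permutation p = 0.1, the smallest possible. It was 0.06 without replicate 1 of untreated SCC13-pUNO and 0.08 without replicate 2 of untreated SCC13-TLR4 cells, and with LPS it was 0.09 without replicate 3 of SCC13-pUNO. The other probe gave differences of 0.15 and 0.16 from all 15 arrays, and in 1 of its 6 pairs it was lower in SCC13-TLR4 cells, by 0.01.

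DUSP5, the nuclear phosphatase for ERK, read -0.27, 0.28, 0.15 and 0.09 in untreated SCC13-pUNO cells and 0.13, 0.27 and 0.39 in untreated SCC13-TLR4 cells. The LPS-treated cells read -0.18, 0.26, -0.21 and 0.06 in SCC13-pUNO and -0.06, 0.31, 0.30 and 0.14 in SCC13-TLR4 cells. The 3 lowest values of DUSP5 were all from SCC13-pUNO arrays, and the groups overlapped. The difference was 0.20 ± 0.16 (SE) untreated and 0.19 ± 0.15 with LPS, and limma's adjusted p was 0.999 and 1.00. The untreated difference of DUSP5 was 0.27 without pUNO-2 and 0.09 without replicate 1 of untreated SCC13-pUNO cells, and with LPS it ran from 0.13 to 0.28 as single arrays were left out.

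**Figure D2:**
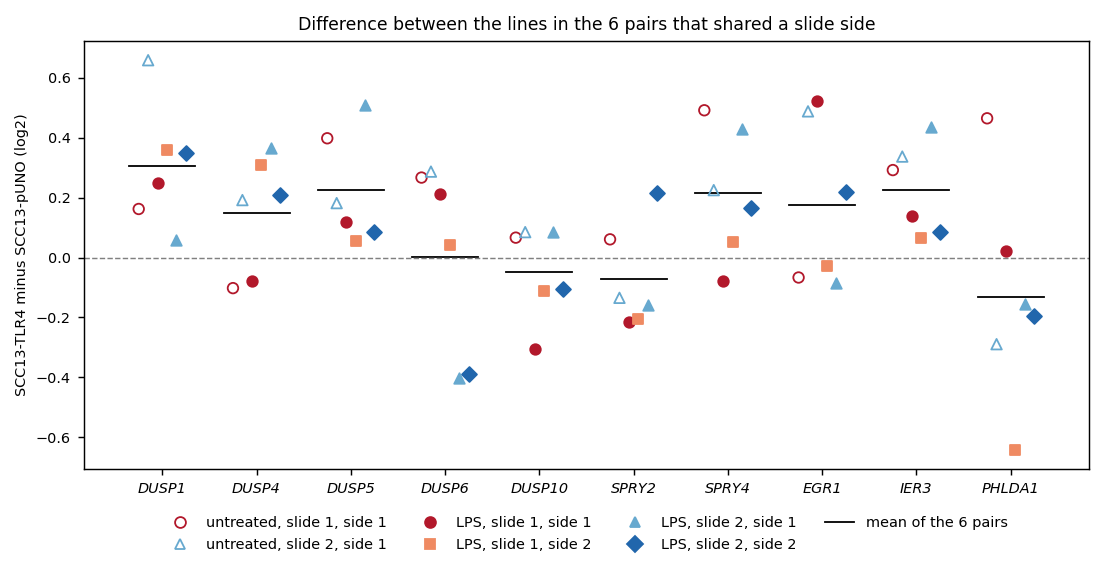
Log2 intensity in SCC13-TLR4 minus SCC13-pUNO cells (vertical axis) for each gene in the 6 pairs of arrays that shared a slide side and a treatment. Open symbols are untreated pairs, filled symbols LPS pairs, and black lines the mean of the 6. DUSP1, DUSP5 and IER3 lie above 0 in all 6 pairs, and the other 7 genes lie on both sides of 0.

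The other 7 genes had pairs on both sides of 0. SPRY4, a Sprouty inhibitor of RAS signalling, was higher in SCC13-TLR4 cells in 5 of 6 pairs, by 0.21 on average. Without pUNO-2 and with slide as a factor, the untreated difference of SPRY4 was 0.32 ± 0.11 (SE), with limma's adjusted p = 0.825. The fainter SPRY4 probe went the other way in 4 of 6 pairs, and its difference turned from 0.67 untreated to -0.23 with LPS, with SEs of 0.54 and 0.50. DUSP4 was higher in 4 of 6 pairs, EGR1 and DUSP10 in 3, and SPRY2 and PHLDA1 in 2. DUSP6, the cytoplasmic ERK phosphatase, was higher in 4 of 6 pairs and its mean over the pairs was 0.003, with single pairs from -0.40 to 0.29.

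Without LPS the fitted difference between the lines was above 0 for 7 of the 10 genes, against 45.1% of all probes, and with LPS for 6, against 47.7%. The untreated count includes pUNO-2. Without it and with slide as a factor, DUSP4 and DUSP10 turned above 0 and PHLDA1 below. The 95% intervals of the members spanned 0 in both comparisons of the lines when all 15 arrays were fitted. The widest untreated interval belonged to PHLDA1, from -0.54 to 1.20, and the narrowest to SPRY2, from -0.44 to 0.15. A doubling would be 1 log2 unit, and of the 10 genes only the interval of PHLDA1 reached it in either comparison. With slide as a factor and without pUNO-2, the interval of PHLDA1 ran from -0.47 to 0.43 untreated and from -0.62 to 0.14 with LPS.

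**Figure D3:**
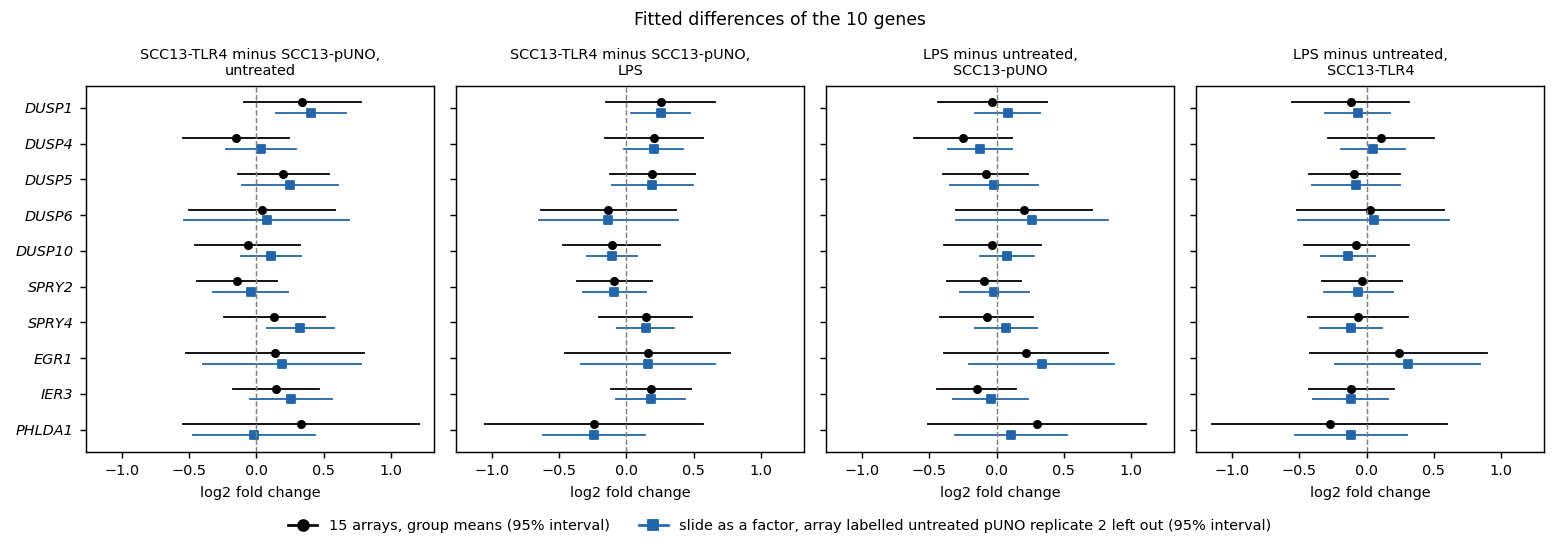
Fitted log2 differences (horizontal axis) of the 10 genes in 4 comparisons. Black circles are the fit of group means to 15 arrays, blue squares the fit with slide as a factor and without pUNO-2, and lines are 95% intervals. All black intervals cross 0, and the blue intervals of DUSP1 in both line comparisons and of SPRY4 untreated do not.

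After 24 h of LPS no gene of the 10 passed the test against untreated cells of the same line. In SCC13-pUNO cells the differences ran from -0.25 for DUSP4 to 0.30 for PHLDA1, and in SCC13-TLR4 cells from -0.27 for PHLDA1 to 0.24 for EGR1. PHLDA1 had opposite signs in the lines, and the difference between its responses was not called by limma (adjusted p = 1.00). EGR1 and DUSP6 were the genes whose fitted difference was above 0 in both lines. For EGR1 it was 0.22 ± 0.28 (SE) in SCC13-pUNO cells and 0.24 ± 0.31 in SCC13-TLR4 cells, both smaller than their SE, and for DUSP6 it was 0.20 ± 0.23 and 0.03 ± 0.25. Between arrays that shared a slide side, pUNO-2 left out, DUSP6 was higher after LPS in 3 of 3 pairs in SCC13-pUNO cells, by 0.02, 0.19 and 0.49, and lower in 3 of 3 in SCC13-TLR4 cells, at -0.04, -0.12 and -0.20. The difference between its fitted responses was not called by limma (adjusted p = 1.00). In SCC13-pUNO cells DUSP10 was also higher in 3 of 3 pairs, as were 13.4% of all probes, and DUSP4 was lower, as were 8.26%. In SCC13-TLR4 cells EGR1 was higher in 3 of 3, as were 8.85% of all probes, and DUSP1, SPRY4 and IER3 were lower, as were 15.4%. An unadjusted p under 0.05 was reached by no member, and by 2.48% of all probes in SCC13-pUNO and 1.33% in SCC13-TLR4 cells. For the difference between the responses no member and 1.32% of all probes did. With slide as a factor and pUNO-2 removed, the members again gave 0, against 3.6% of probes in SCC13-pUNO and 2.46% in SCC13-TLR4 cells. With slide side in place of slide, DUSP6 in SCC13-pUNO cells had an unadjusted p under 0.05. Its difference there was 0.28 ± 0.12 (SE), with limma's adjusted p = 0.986, and no member did so in SCC13-TLR4 cells. A single time point was taken, so the first hours after LPS were not measured.

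Each of the 10 genes had more of its variance between slide sides than between groups, and the medians over all probes lay the same way. The gap was small for IER3, at 30.5% against 29.6%. DUSP6 read 3.24, 3.97, 3.99 and 3.64 in untreated SCC13-pUNO cells and 3.51, 3.93 and 3.81 in untreated SCC13-TLR4 cells. The LPS-treated cells read 3.26, 4.18, 4.13 and 4.08 in SCC13-pUNO and 3.47, 4.22, 3.73 and 3.69 in SCC13-TLR4 cells. Replicate 1 was the lowest array of every group, and all 4 replicate 1 arrays lay below all 11 others, which 0.414% of probes did. Slide side took 76.9% of the variance of DUSP6, slide 4.25% and group 6.32%, against medians of 51.3%, 35.4% and 12.9% over all probes. Slide 1, side 1 held the replicate 1 arrays and no others, so side and culture cannot be told apart.

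EGR1, the early response transcription factor, was also low on the replicate 1 arrays. It read -0.95, -0.07, -0.68 and -0.77 in untreated SCC13-pUNO cells and -1.02, -0.28 and -0.13 in untreated SCC13-TLR4 cells. The LPS-treated cells read -1.19, -0.09, 0.01 and -0.33 in SCC13-pUNO and -0.66, -0.12, -0.07 and -0.11 in SCC13-TLR4 cells. Replicate 1 was the lowest array in each group, and replicates 3 and 4 of the untreated SCC13-pUNO cells were lower than the replicate 1 array of LPS-treated SCC13-TLR4 cells. Slide side took 65.4% of the variance of EGR1.

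PHLDA1 read -1.97, -1.37, -1.44 and -0.33 in untreated SCC13-pUNO cells and -1.51, -0.61 and -0.72 in untreated SCC13-TLR4 cells. The LPS-treated cells read -1.56, -1.17, -0.82 and -0.37 in SCC13-pUNO and -1.54, -1.82, -0.97 and -0.56 in SCC13-TLR4 cells. Every array of slide 1 lay below every array of slide 2, as did 8.69% of all probes, and slide took 80.6%, slide side 83.3% and group 7.86% of its variance. DUSP4 and DUSP10 went the other way, with all arrays of slide 1 above slide 2, as did 12.9% of all probes. DUSP4 ranged from 3.26 to 4.17 and DUSP10 from 0.26 to 0.88, and slide took 65.2% and 77.3% of their variance. The slides differed in which cultures they held, so slide and culture cannot be told apart.

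SPRY2 ranged from -0.61 to -0.07, and slide took 34.7% and slide side 52.5% of its variance. The brightest SPRY4 probe ranged from 0.35 to 1.08, and slide took 44.9% and slide side 45.4%. For DUSP5 slide took 3.16% and slide side 45.4%, and for IER3 1.32% and 30.5%. For DUSP1, line alone took 27.3% of the variance, for DUSP5 22.4% and for IER3 17.2%, where the median over all probes was 3.49%. These shares lay at percentiles 94.7, 91.9 and 87.4 of all probes. For SPRY2, which was lower in SCC13-TLR4 cells, line took 14.2%, at percentile 83.5.

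**Figure D4:**
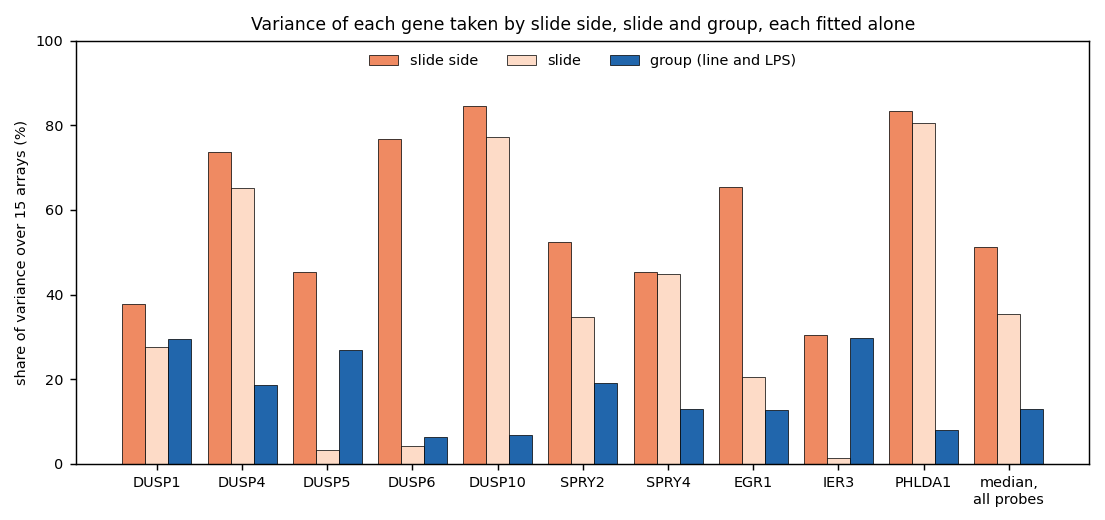
Share of the variance over 15 arrays (vertical axis, percent) taken by slide side, slide and group, each fitted alone, for the brightest probe of each gene and as the median of all probes. DUSP10, PHLDA1, DUSP6 and DUSP4 have between 73.6% and 84.6% in slide side, and group takes at most 29.6% in any gene.

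Over the 15 arrays the genes followed each other unevenly. DUSP5 and IER3 were the closest of the 45 pairs of members, with Pearson's r = 0.87 and Spearman's rho = 0.85. Their r was 0.95 over the 8 arrays of slide 1, 0.89 over the 7 of slide 2 and 0.80 without the 2 arrays farthest from the median of DUSP5. DUSP6 and EGR1 followed with r = 0.78 and rho = 0.66 over 15 arrays, but r was 0.32 over the 11 arrays other than replicate 1 and 0.37 on slide 2. That relation therefore rested on the replicate 1 arrays. No p is given because the pairs were picked as the highest, and the points share slides, cultures and the scaling of each array.

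**Figure D5:**
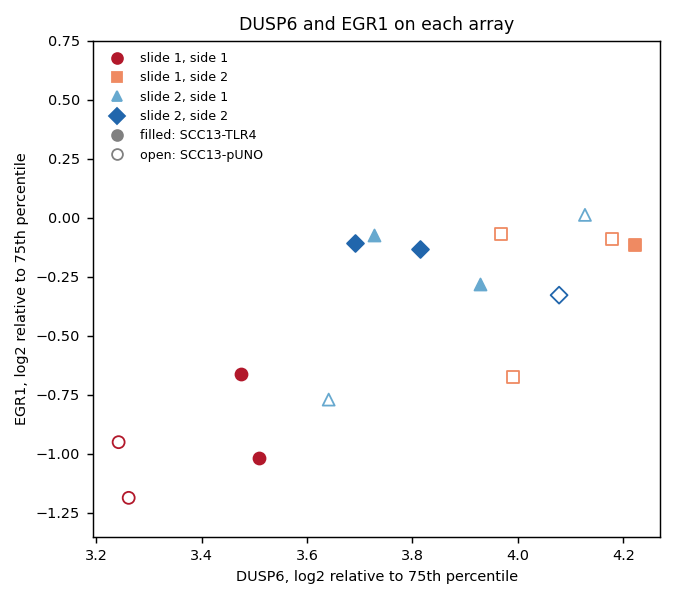
Log2 intensity of EGR1 (vertical axis) against DUSP6 (horizontal axis), both on the scale of each array's 75th percentile. Each point is 1 of 15 arrays, coloured by slide and side, filled for SCC13-TLR4 and open for SCC13-pUNO cells. The 4 arrays of slide 1, side 1 lie lowest in DUSP6, between 3.24 and 3.51.

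After the mean of each slide was subtracted, the genes most like DUSP6 among 12958 named genes were MALAT1, TCIRG1, MAMDC4, SNORD68 and RHOB, with r between 0.88 and 0.93 over 15 arrays. MALAT1 and SNORD68 are noncoding RNAs of the nucleus. EGR1 came at rank 51. Closest to EGR1 were AKR1B15, RHOB, BET1, GIT2 and JUN, with r between 0.80 and 0.88, and DUSP6 came at rank 7. JUN and RHOB are early response genes themselves. The ranks describe these arrays, which share slides, cultures and scaling. Differences between slide sides were not subtracted, and slide side took 76.9% of the variance of DUSP6 and 65.4% of that of EGR1. After the mean of each slide side was subtracted instead, r between DUSP6 and EGR1 was 0.41.

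The wider pathway gave no call either. The list of the cascade ran from EGFR to ERK and also held RPS6KA1, RPS6KA2, RPS6KA3 and PEA15. Of its 22 genes 20 were tested, and their median difference between the untreated lines was -0.04. Of 19 other feedback inhibitors and MAP kinase phosphatases, 16 were tested, with a median of 0.09. Of 26 other ERK targets and early response genes, 23 were tested, with a median of -0.03, and of 15 genes of the JNK and p38 cascades 14 were tested, with a median of -0.10. The median over the 10 members was 0.14, and over all probes -0.022. With slide as a factor and without pUNO-2 the untreated medians of the 4 lists were 0.048, 0.13, 0.051 and -0.011, so that the cascade and the targets turned sign, with 0.15 over the members and 0.028 over all probes. With LPS the medians were -0.02, 0.06, 0.05 and 0.04, with 0.15 over the members and -0.0083 over all probes. No gene of the 4 lists passed the adjusted p of 0.05 in either direction in any comparison.

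Few genes of these lists had groups that did not overlap. Between the untreated lines they were 2 of 16 inhibitors and 1 of 23 targets, where 3.73% of all probes lay apart. Between the lines with LPS it was 1 of 23 targets, against 1.29% of all probes. For LPS in SCC13-TLR4 cells it was 1 of 16 inhibitors, against 1.79%. DUSP8, a phosphatase for JNK and p38, was 0.78 ± 0.27 (SE) higher in untreated SCC13-TLR4 cells, with limma's adjusted p = 0.999 and an exact permutation p = 0.0571. HBEGF, a ligand of EGFR that ERK also induces, was 0.50 ± 0.19 higher in the same cells (limma's adjusted p = 0.999) and 0.46 higher with LPS. HBEGF was higher in 6 of 6 pairs, its exact permutation p untreated was 0.0286, the smallest possible, and it was well above background on 13 arrays. AREG, another ligand of EGFR, was 0.26 ± 0.14 higher with LPS (limma's adjusted p = 1.00) with an exact permutation p = 0.0286, the smallest possible. SPRY3 did not overlap between the untreated lines, but it was well above background on 7 of 15 arrays, so the size of its difference (0.79 untreated and -0.20 with LPS) is not exact, and it was higher in 3 of 6 pairs. SPRED2, which holds back RAF, was 0.19 lower after LPS in SCC13-TLR4 cells, with an exact permutation p = 0.114. These genes were named because their groups did not overlap. That choice by itself holds the exact permutation p at the low end of its range, so it is no separate evidence. Besides HBEGF, SOS1, SPRED2, JUN and BTG2 were higher in 6 of 6 pairs between the lines, by 0.18 to 0.33 on average, where 3.1% of all probes were. These were 1 of the 20 tested genes of the cascade, 1 of 16 inhibitors and 3 of 23 targets, and no gene of the lists was lower in 6 of 6.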

How the data were processed

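RNA of 15 SCC13 cultures was hybridised to Agilent 8x60K human arrays with 1 colour. The authors deposited, per the file headers, the intensity of each spot after Feature Extraction 10.7.3.1 had subtracted background and spatial trend, with no normalization between arrays. The deposited intensity was converted here to log2 and set relative to the 75th percentile of the non-control spots of its array. Outlier-marked spots were left out and spots of a probe averaged. A probe was tested (22685 of 50599) when, on each array of 1 group or more, at least 50% of its spots were marked well above background. Symbols came from accessions through a RefSeq table of GRCh38.p14, for 28174 probes.

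Group means of all 15 arrays were fitted with limma 3.58.1 (R 4.3.3), with Benjamini-Hochberg adjustment over all probes tested and a threshold of 0.05. The study's methods add an absolute log-fold change over 2. Single genes were also compared by two-sided exact permutation tests over arrays, with 35 splits for 3 against 4 and 70 for 4 against 4, where no p below 0.0286 is possible. The fit was tested on simulated data with independent noise on each array. The simulation held no slide effect and no array that went against its label, so it does not cover these. Groups and replicate numbers came from the sample labels. The number of arrays limits the precision.

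The members and gene lists were chosen with earlier results of these data known. Named were all members, TLR4 as the label check, the 5 genes most like DUSP6 and EGR1, and from 4 pathway lists (ERK cascade core, other ERK feedback inhibitors and MAPK phosphatases, other ERK target and immediate early genes, JNK and p38 cascade) up to 3 genes per comparison with the largest change among those without overlap between groups. SOS1, JUN and BTG2, and the values of KRT14, KRT17, PTPRC, CD14 and CD68, were picked after they had been seen. Marker lists were those of keratinocytes, fibroblasts, leukocytes, melanocytes and endothelial cells. Of 4 melanocyte markers PMEL, and of 4 endothelial markers CDH5, was well above background on all arrays.

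Replicate numbers paired the 2 lines with LPS, where deviations from the group means correlated with r between 0.38 and 0.62 and each number shared a slide side. In the other comparisons at least 1 number correlated below 0.

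Alternatives were normexp background correction (offset 50, on median signals), quantile normalization, a stricter filter (all 15 arrays) or none, outlier spots kept, a mean over probes, slide as a factor, slide with the array whose TLR4 went against its label removed, a replicate block, the fold threshold, and each array left out. Slide side as a factor and a block on the LPS arrays alone were added after the data were seen. Figures were drawn with Python 3.11.15 and matplotlib 3.10.9. Protein and phosphorylation measurements of the study were not analysed here.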

Additional observations from a re-analysis of the deposited data

Results flagged for a closer look

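A value was picked out when 1 array of a group of 4 stood apart from the others by most of the range of the group. Of 39 groups of 4 arrays or more that were checked, 4 were picked out, where chance gives about 1 in 20 groups, or 1.95. DUSP1 read -1.41 on pUNO-2 and between -2.10 and -2.05 on the other untreated SCC13-pUNO arrays, and this is the array whose TLR4 went against its label. DUSP6 read 3.26 in replicate 1 of LPS-treated SCC13-pUNO cells, and the others read between 4.08 and 4.18. EGR1 read -0.66 in replicate 1 of LPS-treated SCC13-TLR4 cells, and the others read between -0.12 and -0.07. TLR4 read -4.74 in replicate 4 of LPS-treated SCC13-pUNO cells, and the others between -6.26 and -6.09, with none of the 4 well above background.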

How the results depend on the processing

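None of the 12 member probes was called under any of the 27 alternatives, and no member reached an adjusted p below 0.461. The 40 differences (10 genes in 4 comparisons) gave 1050 recomputed values. Of these, 992 kept the direction and 58 turned, all in genes that were never called. The causes of the turns were not tested. Part of the 992 could not turn by construction. A change of filter, or leaving out an array of a group outside the comparison, leaves the fitted difference as it was. So does the mean over probes for every gene but SPRY4 and IER3. The 992 therefore overstates how far the directions were put to a test.

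Across all probes, the count of 0 between the untreated lines became 11 with slide as a factor and pUNO-2 (the array labelled untreated SCC13-pUNO replicate 2) removed, and 12 with slide side in place of slide. With LPS these counts were 22 and 17. With single arrays left out, the counts ran from 0 to 7 between the untreated lines (7 without pUNO-2 and 3 without TLR4 untreated replicate 3), 0 to 10 with LPS (10 without pUNO-2), 0 to 1 for LPS in SCC13-pUNO cells (1 without the LPS replicate 2), 0 to 3 for LPS in SCC13-TLR4 cells and 0 to 2 for the difference of responses (both without untreated replicate 3). A replicate block over all arrays called 0 probes in each comparison. In the LPS arrays alone, where the numbers paired the lines, the replicate block called 4 probes and no member, with DUSP1 at 0.25 ± 0.10 (SE) and limma's adjusted p = 0.900. Otherwise the pairing changed no call. It turned DUSP10 after LPS in SCC13-TLR4 cells to 0.0008.

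Between the untreated lines, slide as a factor turned DUSP4 to 0.002, DUSP6 to -0.011, DUSP10 to 0.094, EGR1 to -0.0023 and PHLDA1 to -0.060. With pUNO-2 removed too it turned DUSP4 to 0.034, DUSP10 to 0.11 and PHLDA1 to -0.019. Slide side turned DUSP4 to 0.044, DUSP10 to 0.050 and PHLDA1 to -0.025, and without pUNO-2 to 0.051, 0.075 and -0.013. For LPS in SCC13-pUNO cells, slide turned DUSP10 to 0.064 and SPRY4 to 0.0099, and slide side to 0.045 and 0.036. With pUNO-2 removed, slide gave DUSP1 0.083, DUSP10 0.079 and SPRY4 0.068, and slide side gave 0.084, 0.078 and 0.086. For LPS in SCC13-TLR4 cells, slide side turned DUSP6 to -0.091, and to -0.092 without pUNO-2. Normexp turned DUSP10 between the untreated lines to 0.009, DUSP1 after LPS in SCC13-pUNO cells to 0.057, and in SCC13-TLR4 cells DUSP5 to 0.0007 and DUSP6 to -0.016. The mean over both SPRY4 probes turned SPRY4 to -0.046 between the lines with LPS and to 0.23 for LPS in SCC13-pUNO cells.

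With single arrays left out, signs turned within these ranges. Between the untreated lines DUSP6 ran from -0.12 to 0.16, DUSP10 from -0.24 to 0.021 and EGR1 from -0.033 to 0.41. Between the lines with LPS EGR1 ran from -0.10 to 0.30. For LPS in SCC13-pUNO cells DUSP1 ran from -0.13 to 0.13, DUSP10 from -0.14 to 0.047 and SPRY4 from -0.18 to 0.039. In SCC13-TLR4 cells DUSP4 ran from -0.012 to 0.17, DUSP6 from -0.12 to 0.13, DUSP10 from -0.16 to 0.097, SPRY2 from -0.15 to 0.078, SPRY4 from -0.14 to 0.037 and EGR1 from -0.032 to 0.41.

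The differences between the lines of DUSP1, DUSP5 and IER3 kept their sign under every alternative. So did that of SPRY2, which was lower in SCC13-TLR4 cells. With single arrays left out it ran from -0.26 to -0.027 untreated and from -0.16 to -0.038 with LPS. The fainter SPRY4 probe lay near background, which limits what its values can show.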
